A study of Mus musculus with 119 samples.

Results

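The genes described here are the nuclear genes that encode subunits of the oxidative phosphorylation machinery of mitochondria. Members were taken by name from the 55291 genes of the count tables: every symbol that begins as a complex I subunit (Ndufa, Ndufb, Ndufc, Ndufs or Ndufv with a number), the 4 succinate dehydrogenase subunits, and symbols that begin with Uqcr, Cox4 to Cox8 or Atp5. Pseudogene names, which carry -ps, were left out, and a mean of at least 1 CPM (reads of a gene relative to the total of its library) over all 119 libraries was required. Of 101 names that fitted, 13 were pseudogene names and 7 lay below 1 CPM, which left 81 members. They comprise 36 genes of complex I, 4 of complex II, 8 of complex III, 16 of complex IV (among them Ndufa4 and Ndufa4l2, whose family is placed with cytochrome c oxidase) and 17 of complex V. Just inside the minimum were Cox6b2 (mean 1.23 CPM), Cox4i2 (1.34 CPM), Ndufa4l2 (1.51 CPM) and Cox6a2 (1.87 CPM), and just outside it was Cox7a1 (0.973 CPM). The member Ndufb4c is annotated as a processed pseudogene (GENCODE M21, mm10), so its reads and those of Ndufb4 may have been split between near-identical copies, and both are uncertain.

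Complexes I and II pass electrons from NADH and succinate to ubiquinone, complex III passes them on to cytochrome c, and complex IV hands them to oxygen. Complexes I, III and IV pump protons as they do so, and complex V, the ATP synthase, uses the resulting gradient to make ATP. All except complex II also contain subunits encoded by the mitochondrial genome, and in the brain most of the ATP made this way is spent by neurons on ion pumping and synaptic transmission.

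Brain punches of 5 regions were taken: the prefrontal cortex (PFC), the DMS, the accumbens (NAc), the amygdala (Amy) and, in the midbrain, the ventral tegmental area (VTA), a site of dopamine neurons. They came from female and male C57BL/6 mice that had received THC (10 mg/kg) or vehicle intraperitoneally once a day from postnatal day 28 to 48 (21 injections) and were tested from postnatal day 63, after a drug-free interval. Each region, sex and treatment had 6 libraries of polyadenylated RNA, and the male vehicle VTA had 5. The labels give an age of 11 weeks, the strain C57BL/6J and a dorsolateral position for the striatal punch, whereas the study's text gives another age, the substrain C57BL/6NCrl and the dorsomedial striatum (DMS), so the striatal samples carry the name DMS here only as their titles do. A library is 1 region of 1 mouse, and the labels do not say which libraries share a mouse. Totals ran from 17826631 to 25470245 expected counts in the PFC and DMS table and from 3090998 to 77042133 in the table of NAc, Amy and VTA. Summed levels of cell type marker lists went with most region names: 7 dopaminergic genes reached 1128.8 to 4010.7 CPM in the VTA and at most 46.1 CPM elsewhere, 8 medium spiny neuron genes reached 5638.9 to 9485.1 CPM in the DMS and at most 502.0 CPM in the PFC, and 6 cortical projection neuron genes reached 3585.6 to 4142.2 CPM in the PFC. The medium spiny sums of the NAc (2531.2 to 5254.7 CPM) and of the Amy (474.62 to 2674 CPM) overlapped. Cortical projection sums of the Amy ran from 842.66 to 2151.5 CPM. In 2 Amy libraries of THC-treated mice, female replicate 6 and male replicate 6, the sex-linked genes went against the labelled sex. In bulk tissue, fewer cells of a type and less RNA per cell cannot be told apart.

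Levels are given as CPM scaled by the trimmed mean of M-values (TMM) over all libraries. The regions were read in 2 separate tables (PFC with DMS, and NAc with Amy and VTA), so that an order across tables is a description only. The 2 catalytic-core subunits of the ATP synthase, Atp5b (beta) and Atp5a1 (alpha), had the highest levels, with means over the regions of vehicle mice of 1137 and 863 CPM. Sdha, the flavoprotein of complex II, followed with 457 CPM, Cox4i1, the common form of subunit IV of cytochrome c oxidase, with 445 CPM, and Uqcrc1, a core protein of complex III, with 241 CPM. Per kilobase of principal transcript, Atp5b (593 CPM per kb) and Cox4i1 (589 CPM per kb) were alike, since the Cox4i1 transcript is short. The lowest were 4 genes of complex IV, Cox6a2, Ndufa4l2, Cox4i2 and Cox6b2, and after them came Ndufb4 at 18.7 CPM, a gap of about an order of magnitude.

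Most members differed little between regions. The ratio of the highest to the lowest region mean had a median of 1.34 over the 81 members, was below 1.5 for 65 of them, and ran from 1.10 for Sdhd, a membrane anchor of complex II, to 6.38 for Cox6b2. The VTA had the highest mean for 52 members, the DMS for 25 and the PFC for 4, whereas the NAc had the lowest mean for 50 members and the PFC for 23. The summed level of all members in vehicle libraries was 11011 ± 802 CPM (SD, n = 11) for the VTA, 10197 ± 764 CPM in the DMS, 9457 ± 353.95 CPM in the PFC, 9311 ± 1173 CPM in the Amy and 8661 ± 482 CPM in the NAc, with 12 libraries in each of the latter 4. By library the VTA ran from 9512 to 12194 CPM and the NAc from 7796 to 9585 CPM, so that only the lowest VTA library and the highest NAc library met. Without TMM scaling the members took 1.15% of all counts in the VTA, 0.991% in the DMS, 0.956% in the Amy, 0.904% in the NAc and 0.874% in the PFC, so that the PFC and not the NAc was lowest.

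**Figure D1:**
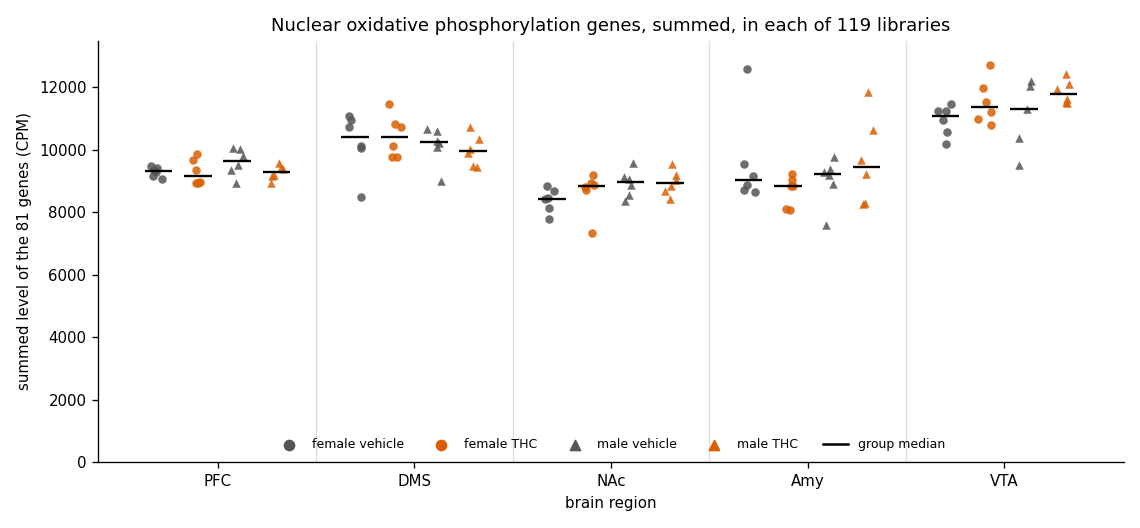
Summed level of the 81 nuclear genes (vertical axis, CPM after TMM scaling) in each of the 119 libraries, by brain region, with a point per library, circles for females, triangles for males, grey for vehicle, orange for THC and a bar for each group median. On this scale the VTA libraries lie highest and the NAc libraries lowest (the PFC is lowest without TMM scaling), THC and vehicle points overlap in every region, and a single female vehicle Amy library stands at 12595 CPM.

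Mitochondrially encoded subunits did not follow that order. The summed level of the 13 mitochondrial genes in vehicle libraries was 62872 ± 6615 CPM in the DMS, 49676 ± 1801 CPM in the PFC, 40042 ± 2006 CPM in the NAc, 34022 ± 2831 CPM in the Amy and 33472 ± 4233 CPM in the VTA. The VTA, highest for the nuclear genes, thus had the lowest mean for the mitochondrial ones, within the spread of the Amy. These transcripts are read here from polyadenylated RNA, which captures them unevenly.

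**Figure D2:**
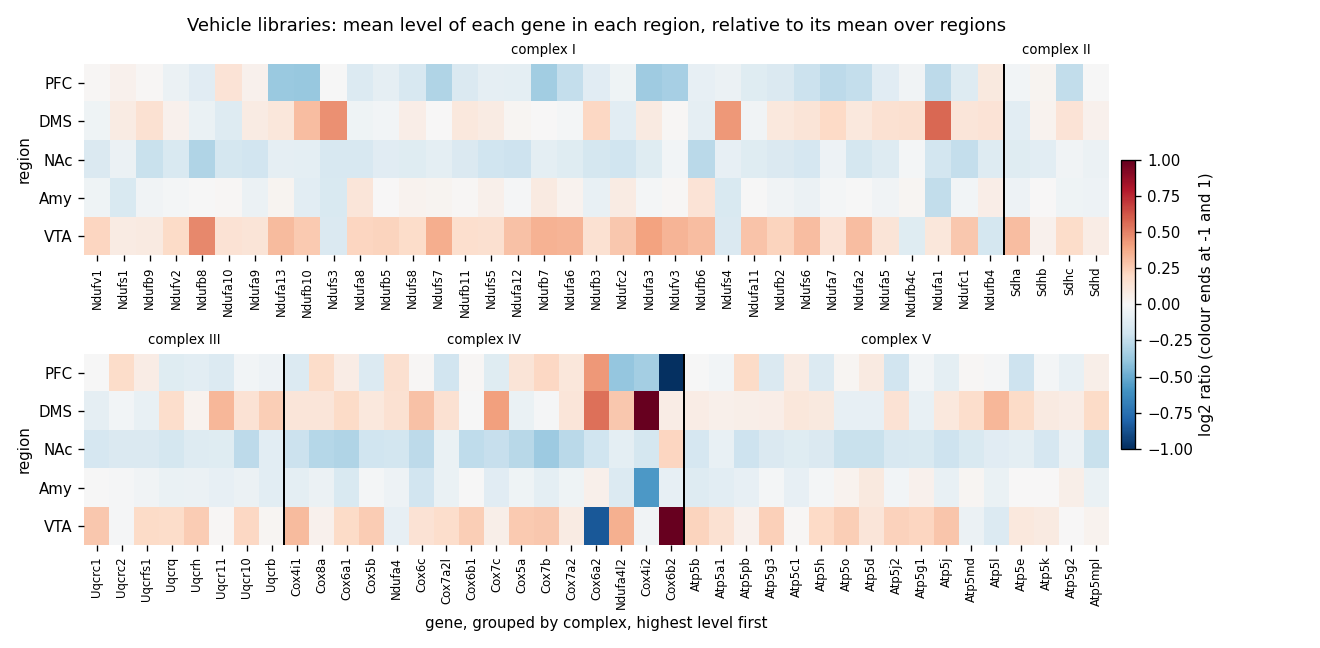
Mean level of 80 of the 81 members in the vehicle libraries of a region relative to the mean of the gene over the 5 regions (colour, log2 ratio, ending at -1 and 1), with genes along the horizontal axis grouped by complex and ordered by level, and regions along the vertical axis. The VTA row is red and the NAc row blue for most genes of every complex, and Cox4i2, Cox6b2 and Cox6a2 carry the strongest colours.

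Sequence upstream of the start site is shown here for 1 member of each complex. Promoter windows (RefSeq, GRCm38.p6) were found for 65 of the 81 members and for 27025 genes in all. The 250 bases before each start were searched on both strands for motifs known from promoters of respiratory chain genes. Bases after the start were not searched, so motifs there are missed. A gene counted when any of its windows held the motif. The full palindromic core of the nuclear respiratory factor NRF1 was found for 4 members (6.15%) against 0.877% of all genes. Its shorter form, GCNTGCGC, which the longer core contains, was found for 18 members (27.7%) against 9.38%. CCGGAAG, the core bound by ETS factors such as NRF2 (GABP), was found for 12 (18.5%) against 7.83%. The YY1 core AAGATGGC was found for 1 member (1.54%) against 1.83%, and TATAAA for 6 (9.23%) against 14.3%. Member windows were also richer in G and C, with a median of 56.4% against 52.4%, and the motifs above other than TATAAA and the YY1 core consist mostly of these letters. The stretches below lie upstream of the start, overlap no annotated exon, read 5′ to 3′ on the strand of the gene, and carry in capitals the matches to the NRF1 or ETS cores on either strand. Only members whose stretch held a match to the NRF1 short core, the ETS core or the YY1 core could be printed. Each printed stretch therefore holds a match by choice.
Ndufs5, chr4:123718203-123718436, minus strand: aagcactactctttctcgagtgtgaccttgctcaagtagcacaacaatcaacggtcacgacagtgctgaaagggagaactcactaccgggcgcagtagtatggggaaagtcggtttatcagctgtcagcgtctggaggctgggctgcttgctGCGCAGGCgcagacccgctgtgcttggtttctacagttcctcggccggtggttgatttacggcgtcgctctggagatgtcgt
Sdhd, chr9:50603850-50603909, minus strand: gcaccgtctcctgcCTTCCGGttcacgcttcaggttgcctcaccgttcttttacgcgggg
Uqcrh, chr4:116075072-116075268, minus strand: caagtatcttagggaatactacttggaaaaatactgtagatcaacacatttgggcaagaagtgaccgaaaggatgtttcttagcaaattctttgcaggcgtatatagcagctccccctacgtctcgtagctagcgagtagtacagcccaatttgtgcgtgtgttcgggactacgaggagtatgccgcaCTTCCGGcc
Cox6a1, chr5:115348982-115349129, minus strand: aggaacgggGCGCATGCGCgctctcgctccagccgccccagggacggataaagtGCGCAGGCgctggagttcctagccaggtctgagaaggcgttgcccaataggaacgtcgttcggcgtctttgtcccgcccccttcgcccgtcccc
Atp5h, chr11:115419963-115420127, minus strand: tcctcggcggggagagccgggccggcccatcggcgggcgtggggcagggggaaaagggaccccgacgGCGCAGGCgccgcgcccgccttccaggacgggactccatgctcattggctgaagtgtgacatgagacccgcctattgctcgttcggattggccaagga
The stretch of Cox6a1 held 3 matches of the NRF1 short core, 2 of them overlapping within the full palindromic core, and those of Ndufs5 and Atp5h held 1 each. In Sdhd and Uqcrh the capitals are the reverse complement of the ETS core. A match describes these letters and is not evidence of a bound site.

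Region differences were tested in vehicle libraries, with sex as a covariate, only between regions of the same table. A gene was called when its false discovery rate (FDR, the Benjamini-Hochberg adjusted p of edgeR's quasi-likelihood test over all genes) was under 0.05 and its log2 fold change was 0.4 or more in size. Of the 4 contrasts, that of the VTA with the NAc had the most members called. Of the 81 members, 22 were called higher and 1 lower in the VTA, where 25.9% of all genes were called higher and 26.1% lower. The share of members called higher was thus near that of all genes, and the share called lower was below it. At the FDR alone, 68 members were higher and 1 lower, against 38.5% and 39.8% of all genes, and the median log2 difference of members was 0.32 (all genes -0.01).

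In that contrast complex I had 11 of 36 members called higher, with a median log2 difference of 0.33. Ndufb8, an accessory subunit of the membrane arm, ranged from 124 to 192 CPM in the vehicle VTA (mean 156) and from 74.1 to 110 CPM in the NAc (mean 90.5), without overlap, and differed by 0.75 ± 0.059 (log2, SE; FDR 3.4e-12). Ndufb6, another membrane-arm subunit, differed by 0.55 and Ndufa3 by 0.50. Of the 7 catalytic core subunits, which carry the flavin and the iron-sulfur clusters, Ndufs7 alone was called higher, at 0.43, and 6 passed the FDR. Ndufs3, the core subunit that did not, had means of 70.6 CPM in the VTA and 69.8 CPM in the NAc.

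None of the 4 complex II genes was called, while all 4 were higher at the FDR, with a median of 0.15. Sdha came closest, at 0.39: it ranged from 530 to 601 CPM in the VTA and from 393 to 450 CPM in the NAc, again without overlap. Sdhb, Sdhc and Sdhd overlapped between the regions.

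Complex III had 2 of 8 members called higher, Uqcr10 (0.44) and Uqcrc1 (0.40), and a median of 0.31. Complex V had Atp5o and Atp5j called higher, both by 0.44, among 17, and a median of 0.24. Atp5b, the most abundant member, ranged from 1183 to 1451 CPM in the VTA and from 918 to 1079 CPM in the NAc and did not overlap, with a difference below the fold threshold.

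Complex IV showed both ends of the contrast, with 7 of 16 members called higher, 1 lower and a median of 0.38. Cox6b2, the isoform of subunit VIb known from testis, had a mean of 2.48 ± 0.80 CPM (SD, n = 11) for the VTA and 1.22 ± 0.32 CPM for the NAc, a log2 difference of 0.96 ± 0.17 (SE, FDR 9.2e-06), and the regions overlapped (1.54 to 3.87 and 0.851 to 1.89 CPM). Cox7b, an X-linked small subunit, was higher by 0.60, Cox5a by 0.51, Cox4i1 by 0.49 and Cox6a1 by 0.46. Cox6a2, the muscle isoform of subunit VIa, was lower in the VTA by 0.99 on the log2 scale (SE 0.43, FDR 0.037). That value rests on few counts: 9 of the 11 vehicle VTA libraries ran from 0.0425 to 0.959 CPM, whereas female replicate 2 was at 3.29 CPM and male replicate 3 at 2.69 CPM. The latter is the shallowest of the series with 3090998 counts, and its level of the dopaminergic gene Th was 287.4 CPM against 615 to 837 CPM in the other vehicle VTA libraries. The call on Cox6a2 was lost in DESeq2 (FDR 0.062), with no filter (FDR 0.073), in the female libraries alone (-0.42), and when any of male replicates 1, 2, 4 or 5 was left out (FDR 0.059 to 0.086). In males alone it was -1.78, and the difference between the sexes was not tested.

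**Figure D3:**
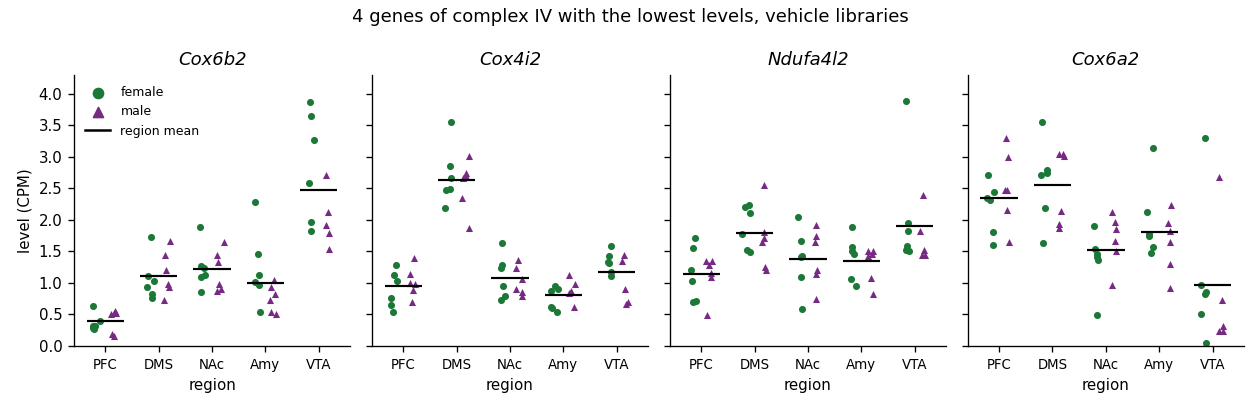
Level (vertical axis, CPM) of Cox6b2, Cox4i2, Ndufa4l2 and Cox6a2 in each vehicle library of the 5 regions (horizontal axis), with circles for females, triangles for males and a bar for the region mean. Cox6b2 is highest in the VTA, Cox4i2 in the DMS, and the VTA values of Cox6a2 are below 1 CPM except in 2 libraries.

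Between the VTA and the Amy, 6 members were called higher and 1 lower, where 22.4% of all genes were called higher and 20.9% lower, and the member median was 0.23 (all genes -0.01). Both shares of members called were below those of all genes. At the FDR alone 49 members were higher and 2 lower, against 33.9% and 35.1% of all genes. The called genes were Cox6b2 (1.26), Cox4i2 (0.56), Ndufb8 (0.49), Ndufa3 (0.42), Ndufa4l2 (0.42) and Cox4i1 (0.41), and Cox6a2 was lower by 1.24 on the log2 scale. Amy values were widely spread, with Ndufb8 from 79.8 to 161 CPM there, and the highest belonged to 1 library, female vehicle replicate 6. Without that library 16 members were called.

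Between the Amy and the NAc only Cox4i2 was called, lower in the Amy by 0.42 on the log2 scale (FDR 0.019), where 12.6% of all genes were called higher and 12% lower. Cox4i2 is the isoform of subunit IV known from lung and linked to low oxygen. Its values ran from 0.541 to 1.12 CPM in the Amy and from 0.735 to 1.63 CPM in the NAc, so the regions overlapped, and the call was lost in either sex alone (FDR 0.057 in females and 0.31 in males). At the FDR alone 22 members were higher, a share near the 28.2% of all genes, and 2 were lower, against 27.7% of all genes, with a member median of 0.11. These 3 contrasts share their NAc, Amy and VTA libraries.

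In the DMS against the PFC, 13 members were called higher and 0 lower by edgeR, where 26.3% of all genes were called higher and 23.1% lower. Both shares of members called were below those of all genes. At the FDR alone 51 were higher and 10 lower, against 42.5% and 37.9% of all genes, and the member median was 0.17 (all genes 0.04). The 2 largest differences were again isoforms of low level. Cox4i2 ran from 1.86 to 3.55 CPM in the DMS and from 0.531 to 1.39 CPM in the PFC without overlap, a log2 difference of 1.46 ± 0.13 (SE, FDR 6.3e-11), and Cox6b2 ran from 0.726 to 1.73 CPM and from 0.149 to 0.633 CPM, also without overlap, a difference of 1.51 ± 0.21. Ndufa4l2, the low-oxygen relative of Ndufa4, overlapped between the regions and differed by 0.66.

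Complex I held 7 of those 13 calls. Ndufa1, an X-linked accessory subunit needed to assemble complex I, ran from 37.0 to 59.8 CPM in the DMS and from 24.95 to 33.4 CPM in the PFC, a difference of 0.84 ± 0.065 (SE, FDR 5.7e-12). Ndufb10 differed by 0.69, Ndufs4 by 0.50, Ndufa13 by 0.50, Ndufa7 by 0.47, Ndufa3 by 0.45 and the core subunit Ndufs3 by 0.47, whereas the core subunit Ndufv1 had means of 159 CPM in the DMS and 165 CPM in the PFC. The other calls were Cox7c (0.54), Uqcr11 (0.47) and Atp5e (0.40), each a small subunit.

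The 10 members that were lower in the DMS at the FDR, all by less than the fold threshold, included 3 complex III members: Uqcrc2 fell by 0.20 on the log2 scale, Uqcrfs1, the Rieske iron-sulfur protein, by 0.14, and Uqcrc1 by 0.08. Ndufa10 was lower by 0.25, Cox7b by 0.21 and Cox5a by 0.19, and Sdha differed by -0.07. The difference of Sdha vanished and that of Uqcrc1 no longer passed the FDR when libraries were scaled by their totals alone, where 21 members were called higher and the median of all genes was 0.11.

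Members called in vehicle mice were called in THC-treated mice, which are other animals, in all 4 contrasts. All 13 calls between DMS and PFC recurred among 18 calls in the THC libraries (72.2% of those), all 23 between VTA and NAc among 43 (53.5%), all 7 between VTA and Amy among 38 (18.4%), and the single call on Cox4i2 between Amy and NAc recurred with no other. Over all genes, 50.2%, 54%, 44.4% and 27% were called in these THC libraries (DMS against PFC, VTA against NAc, VTA against Amy, Amy against NAc), and of the genes called in vehicle libraries 91.5%, 91%, 84.7% and 86.3% were called there in the same direction. Recurrence was thus common among all genes.

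Other genes of energy metabolism were counted in the same contrasts. Of 13 mitochondrially encoded subunits, 0 were called higher and 3 lower in the VTA against the NAc by edgeR (9 lower at the FDR, median -0.24), and 5 were called higher in the DMS against the PFC (median 0.35). Of 43 assembly factors, 7 were called higher and 1 lower in the VTA against the NAc (median 0.06), and 6 higher and 3 lower in the DMS against the PFC (median 0.08). Of 16 genes of the tricarboxylic acid cycle and pyruvate dehydrogenase, 15 were higher at the FDR in the VTA against the NAc (3 called, median 0.21), but 11 were lower and 3 higher in the DMS against the PFC (median -0.14). Among 16 glycolytic genes 7 were called higher and 1 lower in the VTA against the NAc (median 0.39), and 0 higher and 10 lower in the DMS against the PFC (median -0.44). Among 14 regulators of mitochondrial biogenesis the directions were mixed, with 3 called higher and 4 lower in the VTA against the NAc. There Esrrg, a nuclear receptor that acts on respiratory genes, differed by 1.69 and the coactivator Ppargc1a by 0.50, whereas Gabpa differed by -0.50 and Nrf1 by -0.38. In the DMS against the PFC the signs of these 4 genes were reversed: Esrrg differed by -1.21, Ppargc1a by -1.03, Gabpa by 0.55 and Nrf1 by 0.50.

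The region contrasts also carry cell type and gene length. The 8 oligodendrocyte genes summed to 10668 to 19878 CPM in the VTA, 3498 to 6843 CPM in the NAc and 6226 to 8789 CPM in the DMS, and the 9 pan-neuronal genes had a median log2 difference of 0.55 in the VTA against the NAc and -1.43 in the DMS against the PFC. Their part in the member values was not tested. Cytosolic ribosomal protein genes, also short and abundant, had a median of 0.58 in the DMS against the PFC, with 63 of 81 called higher, and of -0.02 in the VTA against the NAc, with 5 called higher and 1 lower.

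THC against vehicle was tested within each region and sex. In all 10 comparisons 0 members were called and 0 passed the FDR, in the main edgeR fit and in DESeq2. DESeq2 gave no adjusted p for Atp5g2 in the male NAc, and some other edgeR fits let that gene pass the FDR without a call, as given below. Of all genes, 1.57% were called in the female Amy, 0.0127% in the female DMS and 0% in the other 8 comparisons. At the FDR alone, 1.88% were higher and 0.835% lower in the female Amy, and 0.00633% and 0.0127% in the female DMS. What varied was the shift of the members as a block, in which the median of all genes stayed within 0.006 of 0. Members rose or fell together between libraries of a group, so the counts of members under an unadjusted p of 0.05 that follow are not counts of independent genes.

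**Figure D4:**
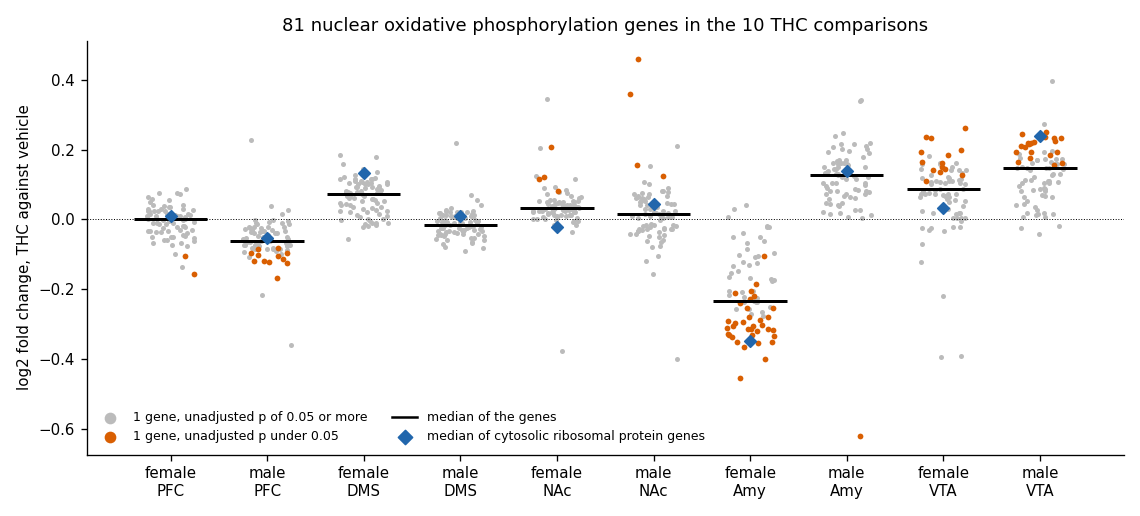
Log2 fold change of THC against vehicle (vertical axis) for each member in the 10 comparisons (horizontal axis; 80 members in the female PFC, where 1 did not pass the filter on low counts, and 81 in the others), with a point per gene, orange where the unadjusted p is under 0.05, a bar for the member median and a diamond for the median of cytosolic ribosomal protein genes. The female Amy bar is at -0.23, the male VTA bar at 0.15 and the male Amy bar at 0.13, and the diamonds lie on the same side of 0 as those 3 bars.

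With all libraries, the largest block shift was in the female Amy. There 78 of 81 members were lower in THC than in vehicle libraries, with a median log2 fold change of -0.23, and 35 had an unadjusted p under 0.05, all lower, against 21.9% of all genes. The medians were alike across complexes (-0.25 for I, -0.20 for II, -0.29 for III, -0.19 for IV and -0.18 for V). Ndufa2, an accessory subunit of complex I, had the smallest p: its lowest, median and highest values were 35.7, 41.0 and 74.2 CPM in vehicle and 28.6, 34.7 and 39.3 CPM in THC libraries (log2 fold change -0.45, SE 0.16, FDR 0.12). Uqcrh, the hinge protein of complex III, had 75.2, 88.8 and 128 CPM in vehicle and 63.1, 78.9 and 82.1 CPM in THC libraries (-0.33, FDR 0.13), and Ndufb4c had -0.35 (FDR 0.14). Each of these 3 genes overlapped between the groups.

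A single vehicle library set much of that shift. Female vehicle replicate 6 had a summed member level of 12595 CPM, and the other 5 had 8662 to 9546 CPM, which overlapped the 6 THC libraries at 8077 to 9221 CPM. Without that library the median was -0.11, with 67 of 81 members lower and 24 under an unadjusted p of 0.05, a shift smaller in size than those of the male VTA (0.15) and male Amy (0.13). Without THC replicates 4 or 6, the lowest on the THC side, the median was -0.20 in each case and 14 and 13 members had such a p. In female vehicle replicate 6 the members lay 0.59 above the Amy mean (median log2) and ribosomal protein genes 0.66 above it, whereas mitochondrially encoded subunits lay 0.06 above it.

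**Figure D5:**
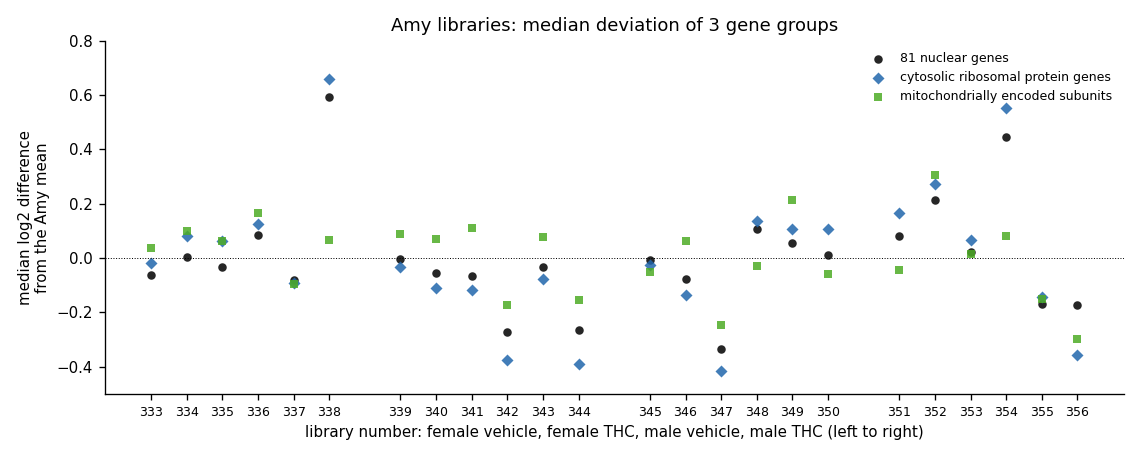
Median log2 difference from the mean of all Amy libraries (vertical axis) for the 81 nuclear genes (circles), cytosolic ribosomal protein genes (diamonds) and mitochondrially encoded subunits (squares) in each of the 24 Amy libraries (horizontal axis, by library number, in the order of replicates within each group). Circles and diamonds move together, at 0.59 and 0.66 in female vehicle replicate 6 and at 0.45 and 0.55 in male THC replicate 4, while the squares of these 2 libraries are at 0.06 and 0.08.

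Other measures moved with the female Amy comparison as well. Cytosolic ribosomal protein genes had a median of -0.35, with 0 of 80 called, and 13 mitochondrially encoded subunits -0.06. Among marker lists, 6 cortical projection neuron genes had a median of 0.69 with 3 called higher, 8 medium spiny neuron genes 0.55 and 8 oligodendrocyte genes -0.41, with 0 called in either of the latter. The 5 choroid plexus genes summed to a median of 237 CPM in vehicle (17.1 to 1149.5 CPM) and 22.5 CPM in THC libraries (17.6 to 3563 CPM), so single libraries of both groups stood apart. By library, the summed cortical projection genes ran from 1071 to 1449 CPM in vehicle and from 1438 to 1927 CPM in THC libraries, and no marker of that list was at 0. Depth ran from 13018420 to 46044478 counts in vehicle and from 20341366 to 76111373 counts in THC libraries. The part of these measures in the member shift was not tested.

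In the male Amy the shift was opposite in sign, with 80 of 81 members higher, a median of 0.13 and 1 member under an unadjusted p of 0.05 (1.84% of all genes). That member was Cox4i2, the only one that was lower: its lowest, median and highest values were 0.617, 0.860 and 1.12 CPM in vehicle and 0.394, 0.567 and 0.819 CPM in THC libraries (-0.62, SE 0.23, FDR 1.00). Summed member levels were 7600 to 9762 CPM in vehicle and 8284 to 11842 CPM in THC libraries and overlapped. THC libraries held 8713204 to 14939490 counts and vehicle libraries 9663291 to 56648771. Ribosomal protein genes had a median of 0.14. Genes with a principal transcript under 1 kb had a median of 0.14 over 51 members and 0.10 over 720 others. Without male THC replicate 6 the member median was 0.17.

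The difference between the sexes was tested as the sex by treatment interaction in the Amy. By edgeR 0 members were called and 0 passed the FDR, with 38 under an unadjusted p of 0.05 (15.8% of all genes), and DESeq2 also gave 0 calls, with 40. The median interaction was 0.36 on the log2 scale, 0.24 without female vehicle replicate 6, and 0.38 without the 2 libraries whose sex-linked genes went against the label. For genes with a principal transcript under 1 kb, it was 0.41 over 51 members and 0.34 over 791 others. The part of transcript length in the member values was not tested. In the PFC, DMS, NAc and VTA the interaction likewise gave 0 calls, with 5, 0, 0 and 2 members under an unadjusted p of 0.05 in edgeR, against 5.87%, 5.9%, 11% and 6.16% of all genes.

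In the VTA most members were higher after THC in both sexes. In males 78 of 81 were higher, with a median of 0.15 and 20 under an unadjusted p of 0.05, all higher (5.92% of all genes). In females 69 were higher, with a median of 0.09 and 14 under that p, all higher (9.02%). Summed levels of the 5 male vehicle libraries were 9512, 10378, 11324, 12047 and 12194 CPM, and those of the THC libraries ran from 11516 to 12422 CPM, so the groups overlapped.

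Atp5l, subunit g of the ATP synthase, was among the 3 smallest p in both sexes. In males its lowest, median and highest values were 66.6, 70.8 and 90.01 CPM in vehicle and 86.5, 90.3 and 107 CPM in THC libraries (0.25, SE 0.085, FDR 0.82), and in females 73.4, 75.3 and 94.1 CPM in vehicle and 82.9, 91.9 and 100.0 CPM in THC libraries (0.19, FDR 0.51), with overlap in both. In males Ndufa13 (0.23) and Ndufa11 (0.17) and in females Ndufb6 (0.20) and Atp5c1 (0.15) were the others. The male count depended on single libraries. Leaving out vehicle replicates 1 to 5 in turn gave 7, 49, 7, 3 and 41 members under an unadjusted p of 0.05, leaving out THC replicates 2, 5 and 6 gave 10, 13 and 7, and the median ran from 0.09 (without vehicle replicate 4) to 0.20. Ribosomal protein genes had a median of 0.24 in the male and 0.03 in the female VTA.

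Cell type markers also moved in the VTA comparisons, with 0 genes of these lists called. In females the 7 dopaminergic genes had a median log2 fold change of -0.37, the 7 microglial genes -0.36 and the 7 astrocyte genes -0.18. Dopaminergic sums ran from 2639 to 3728 CPM in female vehicle and from 1129 to 3756 CPM in female THC libraries, with THC replicate 1 at 1129 CPM and replicate 6 at 1558 CPM. Without both, the female member median was 0.07, with 64 members higher and 2 under an unadjusted p of 0.05, and without replicate 1 alone it was 0.06 with 6. In males the dopaminergic median was -0.13 and the microglial -0.18, and the sums ran from 1384 to 4011 CPM in vehicle and from 2108 to 3722 CPM in THC libraries. The lowest vehicle sum was that of replicate 3, the shallowest library. The part of these markers in the member shifts was not tested.

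In the NAc the block hardly moved, with medians of 0.03 in females (4 members under an unadjusted p of 0.05, against 4.61% of all genes) and 0.02 in males (4 members, against 16.7%). The male median ran from -0.0025 to 0.05 when 1 library was left out. Atp5g2 (chr15:102662864-102672352, minus strand, mm10), however, had the smallest p of all members in both sexes. It is 1 of 3 genes that encode the same mature c subunit of the ring through which protons drive the ATP synthase. In males its lowest, median and highest values were 40.1, 43.6 and 51.7 CPM in vehicle and 52.2, 57.1 and 61.1 CPM in THC libraries, without overlap, a log2 fold change of 0.36 (SE 0.064, unadjusted p 3.6e-05, FDR 0.21). In females they were 33.1, 38.9 and 43.5 CPM in vehicle and 43.3, 44.5 and 47.8 CPM in THC libraries, which overlapped only at 1 edge, a log2 fold change of 0.21 (SE 0.058, FDR 0.99). The male FDR depended on the fit. It was 0.030 with no filter on low counts and 0.036 with all 4 NAc groups in 1 fit, DESeq2 gave no adjusted p for it, and it ran from 0.061 to 0.41 when 1 library was left out. The fold stayed below 0.4 in these fits except without vehicle replicate 3, where it was 0.41.

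The other c-subunit genes did not follow Atp5g2. In the male NAc, Atp5g1 had 99.2 ± 5.3 CPM in vehicle and 104 ± 6.7 CPM in THC libraries (SD, 6 libraries each), and Atp5g3 had 171 ± 9.3 and 166 ± 10.2 CPM. In the other 4 regions Atp5g2 means of males were 38.1 to 48.5 CPM after THC and 40.7 to 46.9 CPM after vehicle. The interaction of sex and treatment for Atp5g2 in the NAc had an FDR of 0.51. In the male NAc the summed medium spiny neuron genes ran from 2531.2 to 3867.5 CPM in vehicle and from 3453.1 to 5254.7 CPM in THC libraries. Medians of the oligodendrocyte sums were 4819 CPM in vehicle and 4297 CPM in THC libraries, and those of the pan-neuronal sums 4983 and 4875 CPM. The part of these markers in the Atp5g2 difference was not tested.

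The PFC and DMS gave small shifts. In the male PFC 77 of 81 members were lower, with a median of -0.06 and 12 under an unadjusted p of 0.05, all lower (4.07% of all genes). Cox6a1, the common isoform of subunit VIa, had values of 172, 187 and 194 CPM in vehicle and 168, 170 and 175 CPM in THC libraries (lowest, median and highest; -0.12, SE 0.032, FDR 1.00). Only its lowest vehicle library lay within the THC range. Uqcr10, a small subunit of complex III, had 50.3, 57.3 and 58.7 CPM against 47.3, 49.2 and 55.0 CPM (-0.17, FDR 1.00). In the female PFC the median was 0.00 with 2 members under that p (5.84%), Atp5k (-0.15) and Ndufb2 (-0.11).

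In the female DMS 71 members were higher, with a median of 0.07 and 0 under an unadjusted p of 0.05 (8.9% of all genes). Ndufa2 came nearest (31.1, 45.8 and 48.9 CPM against 43.4, 48.1 and 58.0 CPM, 0.18, FDR 0.63), followed by Ndufa6 (0.12) and Cox7a2l (0.11). In the male DMS the median was -0.02 with 0 under that p (1.93%), and the nearest were Cox7c (-0.09), Ndufs5 (-0.08) and Uqcrc2 (-0.05). Ribosomal protein genes had medians of 0.13 in the female DMS, 0.01 in the male DMS, -0.05 in the male PFC and 0.01 in the female PFC.

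Sex gave 0 called members in any region by edgeR or DESeq2, where edgeR called 2.64% of all genes for the DMS, 0.25% for the NAc, 0.237% for the PFC, 0.113% for the VTA and 0.0118% for the Amy. The Amy fit held the 2 libraries whose sex-linked genes went against the labelled sex, so its share of all genes is uncertain. Without these libraries 0 members were called in the Amy as well. In the NAc, however, 10 members were higher in males at the FDR (1.38% of all genes were) and 0 lower, with 77 of 81 higher, a median of 0.08 and 38 under an unadjusted p of 0.05 (16.4%). They were Atp5g2 (0.27, SE 0.046, FDR 0.0023), Ndufa11 (0.24), Cox6a1, Ndufa3, Ndufb4c, Cox6b1, Ndufa7, Uqcr10, Cox5b and Atp5g1. Vehicle means of Atp5g2 were 38.9 ± 3.9 CPM in females and 44.3 ± 4.5 CPM in males (SD, 6 libraries each). The lowest summed member levels of the NAc were those of a female THC library (7336 CPM) and a female vehicle library (7796 CPM). No fit of this sex effect left a library out. For genes with a principal transcript under 1 kb, its median was 0.10 over 51 members and 0.05 over 767 others. The part of low libraries and transcript length in the member values was not tested. Members under an unadjusted p of 0.05 were 15 for the PFC, 6 for the DMS, 0 for the Amy and 1 for the VTA, against 16.3%, 27.8%, 6.06% and 7.19% of all genes.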

How the data were processed

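RNA-seq libraries were grouped by the region, sex and treatment in their labels. The deposited values are expected counts per gene, which the authors made with cutadapt 2.9, STAR 2.7.3a and RSEM 1.3.1 on mm10 (submitters' processing notes); the annotation release is not given in the sources used here. The authors tested them with DESeq2. Here the expected counts were rounded to whole numbers (about 5% were not whole), filtered with filterByExpr, scaled by TMM and tested with the robust quasi-likelihood test of edgeR 4.0.16 (R 4.3.3), with FDR from all genes tested. DESeq2 1.42.0 and other filters, scalings and left-out libraries were alternatives. In counts simulated on the female Amy libraries (16866 genes), edgeR recovered 69% of genes with a log2 change of 0.5 and 99% with a change of 1. For the Amy interaction it recovered 51% and 94%, and for the VTA against the NAc 91% and 99%. The simulation drew genes independently and changed only genes above a minimum level. It therefore does not show recovery for members that shift as a block or lie near 1 CPM. Transcript lengths and coordinates came from GENCODE M21 (78 members with a unique entry). Values of 1 member are not reported here singly. Members and gene lists were chosen with earlier results of these data known. Genes were named by a rule: members called in a THC, sex or interaction comparison (otherwise the 3 of smallest p in each THC comparison), the 6 largest called in each direction per region contrast, the tissue isoforms, core subunits and highest and lowest members. Other genes, among them the further calls of the VTA and DMS contrasts, the regulators, the 10 genes of the NAc sex effect and the printed promoters, were named after their values were seen. P-values measure the spread between libraries, whose mice the labels do not identify.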

Additional observations from a re-analysis of the deposited data

Results flagged for a closer look

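Summed member levels, and the levels of the genes with the 3 smallest p of each THC comparison, were searched for a library far from the other 5 of its group (Dixon's test at the 95% level). Of 80 groups tested 12 gave such a library. Chance gives about 1 in 20 for independent groups, but these groups are not independent. Members rise and fall together, the same library can be flagged for several genes, and the genes were chosen by their p in these libraries. The count of 12 therefore cannot be set against that rate. In the summed level of all 81 members, female vehicle Amy replicate 6 stood at 12595 CPM against 8662 to 9546 CPM in the others, male vehicle DMS replicate 5 at 9018 CPM against 10102 to 10659 CPM, and female THC NAc replicate 3 at 7336 CPM against 8715 to 9206 CPM. That Amy library was also high for Ndufa2 (74.2 CPM), Uqcrh (128 CPM) and Ndufb4c (56.0 CPM). In the female vehicle DMS, replicate 1 was low for Ndufa2 (31.1 CPM against 42.6 to 48.9 CPM) and for Ndufa6 (42.9 CPM against 51.0 to 55.6 CPM). In the male PFC, vehicle replicate 5 was low for Cox6a1 (172 CPM against 186 to 194 CPM) and THC replicate 6 was high for Uqcr10 (55.0 CPM against 47.3 to 49.7 CPM). Male THC Amy replicate 4 was high for Ndufc1 (34.3 CPM against 24.4 to 26.3 CPM), and male THC VTA replicate 6 was high for Atp5l (107 CPM against 86.5 to 92.6 CPM).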

How the results depend on the processing

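The 0 calls of the 10 THC, 5 sex and 5 interaction comparisons held under every alternative that was run for them (DESeq2 size factors, DESeq2, no filter, 1 fit over all 4 groups of a region for the THC comparisons, and libraries left out where done). Of the region counts, that of DMS against PFC rose from 13 to 21 with library totals alone. VTA against NAc (23) gave 43 in the THC libraries and 10 in males alone, and 23 to 27 when a male vehicle VTA library was left out. VTA against Amy (7) gave 38 in the THC libraries, 3 in females alone, 18 in males alone and 5 to 16 when a library was left out, with 16 without female vehicle Amy replicate 6, an alternative chosen after seeing the data, as was leaving out female THC VTA replicates 1 and 6. Amy against NAc (1) gave 2 in females alone, 0 in males alone and 2 without that library. For Sdha (DMS against PFC, vehicle: Sdha (FDR alone)) the log2 difference of -0.07 became 5.92e-05 with library totals alone. The cause of these changes was not tested, except that single-sex and left-out fits hold fewer libraries. Of the values of single named genes, 76 lost their call with the same direction and 1 changed direction. A further 1093 kept their direction and their status, called or not called. They include the genes named from the THC comparisons, which had no call to lose. Depth limits Cox6a2, Ndufa4l2, Cox4i2 and Cox6b2, which were near 1 CPM, most in male vehicle VTA replicate 3 with 3090998 counts. No paired analysis was possible because the labels give each library a number of its own and tie no libraries to 1 mouse.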

Other observations

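Members were short genes: the principal transcript had a median of 759 bases over 78 members, with 51 (65.4%) under 1 kb, against 2417 bases and 14.8% for all genes. Values by length class follow, members beside all other genes of that class. In the female Amy THC comparison the median log2 fold change of genes under 1 kb was -0.26 for 51 members and -0.23 for 784 others, and at 2 to 4 kb it was -0.02 for 7 members and -0.01 for 6054 others. In the male VTA THC comparison genes under 1 kb had 0.16 (members) and 0.13 (others). In the VTA against the NAc genes under 1 kb had 0.34 (members) and 0.18 (others), and at 2 to 4 kb 0.29 (7 members) and 0.01 (others). In the DMS against the PFC genes under 1 kb had 0.24 (members) and 0.30 (others).

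Within groups the members of a library rose and fell together. The SD of the library median of members (log2) ran from 0.02 in the female vehicle PFC to 0.25 in the female vehicle Amy, where the median SD of a single member was 0.05 and 0.26.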
